A study of Macaca mulatta with 22 samples.

Results

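The motor and cytoskeleton gene families described here were 55 genes that carried at least 1 N6-methyladenosine (m6A) peak in the prefrontal cortex of 11 rhesus macaques (Macaca mulatta). They were picked by symbol out of 3671 genes with a peak, with earlier results of these data known. The 55 genes held 201 of 10069 peaks. The 17 kinesins had symbols beginning with KIF, and the 8 dynein and dynactin genes with DYNC or DCTN. The 10 myosins had MYO followed by a digit (MYO5C was left out by the rule). The 8 tubulin genes began with TUBA, TUBB or TUBG, among them TUBGCP2, which encodes a protein of the gamma-tubulin ring complex and no tubulin. The 6 ankyrins and spectrins began with SPTA or SPTB, or with ANK and a digit, and the 3 neurofilament genes with NEF. The microtubule-associated proteins were MAP1A, MAP4 and MAPT. MAP1B and MAP2 were on the same list and had no peak under these symbols in the lists used here. Of the 3671 genes, 185 had no symbol and could not be picked.

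m6A is a methyl mark inside mRNA, and m6A-seq pulls down marked RNA fragments with an antibody and reports enriched stretches as peaks. The sevoflurane group held 5 infant macaques (D and S1 male; F, S2 and S3 female). They had inhaled this anaesthetic gas at about 2.5 to 3%, in sessions of 4 h at about 7, 21 and 35 days after birth. The control group held 6 animals, of which A and B were male and C, C1, C2 and C3 female. All were sampled at postnatal day 35, and each label names a separate animal, so the tests below measure the spread between animals.

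There was 1 peak list per animal, with 852 to 1673 peaks after sevoflurane and 452 to 1210 in controls. The depth of the libraries is unknown. Input libraries and RNA levels were not analysed here, so a peak seen in 1 group need not be a change in methylation. In bulk tissue, fewer cells of a type and less RNA per cell cannot be told apart. Of 10 neuronal marker genes 3 had a peak, among them the synaptic vesicle gene SYP in 11 of 11 animals. Per animal, 1 to 3 neuronal markers had a peak after sevoflurane and 1 to 3 in controls. Of 6 astrocyte and 6 oligodendrocyte markers 2 each had a peak, with 0 to 1 per animal in both groups. Of 3 markers of oligodendrocyte precursors 2 had a peak, 0 to 2 per animal after sevoflurane and 0 in each control. Of 5 microglial markers 1 had a peak, in a control, and the 3 endothelial, 3 blood and 2 choroid plexus markers had 0. The part of these marker differences in the results was not tested.

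Kinesins and dyneins are ATP-driven motors that walk along microtubules, kinesins mostly outward along axons and dynein, with its activator dynactin, back toward the cell body. Myosins are the motors of actin filaments. Tubulins build the microtubules, microtubule-associated proteins stabilise and space them, neurofilaments fill and widen axons, and spectrins with ankyrins form the lattice under the membrane that anchors ion channels at axon initial segments and nodes. Neurons depend on all of them because cargo has to travel far between cell body and synapse.

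Most of the 55 genes carried a peak in few animals, and a small core carried one in nearly every animal. KIF1A, MAP1A, MAPT, NEFM and TUBB2B had a peak in 11 of 11 animals. These 5 are 9.09% of the 55, beside 2.21% (81) of all 3671 genes. KIF3B followed with 10 animals. At the other end, 27 genes (49.1%) had a peak in a single animal, beside 55.9% of all genes. Of the 27, 19 were seen in a sevoflurane animal and 8 in a control, beside 1298 and 755 of 2053 over all genes. Peaks were seen only after sevoflurane in 25 genes (45.5%, beside 44.9% of all genes), only in controls in 10 (18.2%, beside 22.8%), and in both groups in 20. The map of peaks by gene and animal shows this layout.

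**Figure D1:**
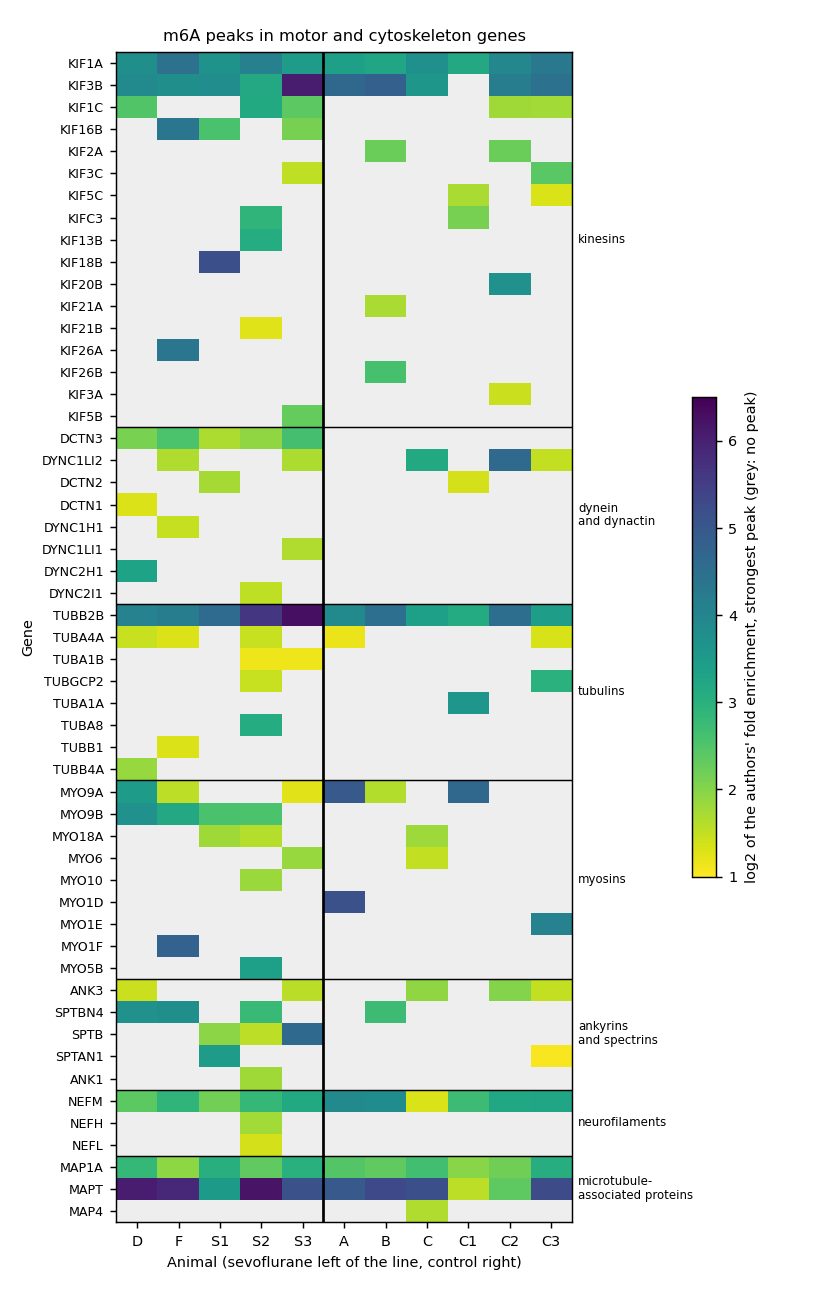
Each cell is 1 gene in 1 animal, for the 53 genes shown, coloured by log2 of the authors' fold enrichment of the gene's strongest peak, grey where the list held no peak; genes are grouped by family, sevoflurane animals left of the line and controls right. The genes filled in all animals are KIF1A, TUBB2B, NEFM, MAP1A and MAPT, DCTN3 is filled in the 5 sevoflurane animals alone, and 27 genes have a single filled cell.

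Presence of a peak after sevoflurane against control was tested gene by gene, on the number of animals with a peak, with a two-sided Fisher's exact test over all 1486 genes peaked in 2 to 9 animals. The 22 tested genes of these families comprised 18 seen in a larger share of sevoflurane animals and 4 in a larger share of controls. DCTN3 and MYO9B passed an unadjusted p of 0.05 after sevoflurane, which is 9.09% of the 22, beside 1.82% (27) of all tested genes. In controls 0 of the 22 and 0% of all tested genes passed. The families were chosen with earlier results known, so these shares were not compared by a test. Without D the count after sevoflurane was 4, with KIF16B and SPTB added, while that over all tested genes was 55. D had no peak in KIF16B or SPTB. After Benjamini-Hochberg adjustment over all 1486 genes, 0 genes stayed under 0.05, and the smallest adjusted p of Fisher's exact test was 0.606. The median difference in share of animals, sevoflurane minus control, was 16.7 percentage points over the 22 genes and 23.3 over all tested genes. The median of the families thus lay below that of all tested genes.

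**Figure D2:**
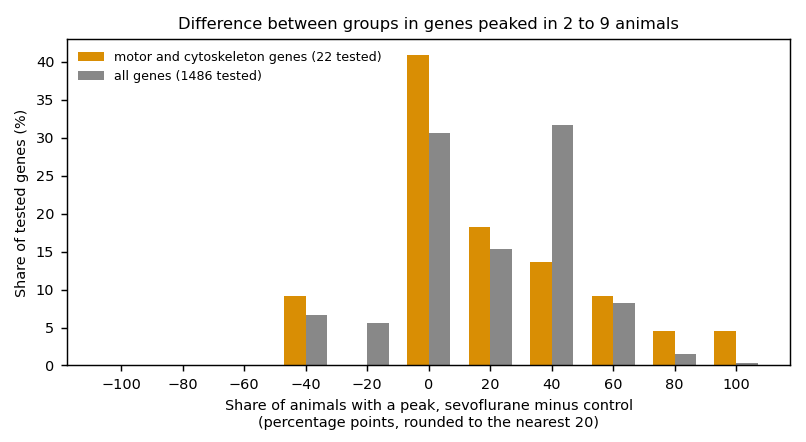
Bars give the share of tested genes (%) by their difference in the share of animals with a peak, sevoflurane minus control, in percentage points rounded to the nearest 20, for the 22 tested motor and cytoskeleton genes and all 1486 tested genes. The bar at 100 holds 1 gene of the families, DCTN3, and the bar at 80 holds 1, MYO9B.

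Kinesins had peaks in 4.6 ± 1.34 genes per sevoflurane animal and 3.83 ± 1.72 per control (SD, n = 5 and 6). KIF1A, which carries synaptic vesicle precursors and dense-core vesicles along axons, was peaked in every animal. Its strongest peak was enriched 13.5-fold in D, 21.4-fold in F, 12.9-fold in S1, 17.1-fold in S2 and 11.2-fold in S3, by the authors' fold enrichment. In controls it ranged from 9 to 19.8 with a median of 11.9. The groups overlapped. Each enrichment comes from the authors' table and describes a peak within its own list. All 11 animals shared a region near the 3' end, chr12:123576196-123576945 (plus strand, rheMac8), with 301 bp common to every animal's peak from 123576555 to 123576855. An unnamed gene model overlaps it on the same strand and also has peaks there, so reads of the pair cannot be told apart.

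KIF3B, a motor subunit of heterotrimeric kinesin-2, was peaked in 5 of 5 sevoflurane animals and 5 of 6 controls, with none in C1. Its enrichment was 14.7 in D, 13.6 in F, 14 in S1, 9.05 in S2 and 66.4 in S3, against 25.3 in A, 28.3 in B, 12.0 in C, 18 in C2 and 21.6 in C3. S3 stood far above the rest, and the other 4 sevoflurane animals lay within or below the range of the controls. Every peak fell in a single region, chr10:31774621-31774921 (minus strand), with 121 bp common to all 10 animals. Its median position was 57.1% along the span of the annotated transcript, introns included.

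KIF16B, an endosome-carrying kinesin, had a peak in 3 of 5 sevoflurane animals (F, S1 and S3), against 0 of 6 controls, with Fisher's exact p = 0.0606. Its enrichment was 20.4 in F, 5.98 in S1 and 4.37 in S3. Without D or without S2, which had no KIF16B peak, that exact p was 0.0333. It was 0.133 without F, S1 or S3, and 0.167 without any single control. With lists restricted to p-values of at most 1e-05, or shortened to equal length, 2 sevoflurane animals and 0 controls had a peak (Fisher's exact p = 0.182). The 3 peaks shared no region: each lay in a stretch of its own, and the peaks of S1 and S3 were close together at 66.0% and 65.8% of the span while that of F lay at the very start. KIF1C, a fast motor of vesicles and mRNA, was peaked in 3 sevoflurane animals, against 2 controls (Fisher's exact p = 0.567). With lists restricted to p-values of at most 1e-05, KIF1C was peaked in 3 sevoflurane animals and 0 controls (Fisher's exact p = 0.0606). With lists of equal length it had 0 peaks in either group. Its region at chr16:4978697-4978936 (plus strand) was found in D and S2, and in the controls C2 and C3, with enrichments of 3.37 to 5.62 and 1 bp common to the 4 animals.

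KIF2A and KIF5C were the tested kinesins seen only in controls. KIF2A, a microtubule-depolymerising kinesin, was peaked in 0 of 5 sevoflurane animals and in the controls B and C2 at 4.71 and 4.73 (Fisher's exact p = 0.455), in regions that the 2 animals did not share. KIF5C, a neuronal heavy chain of conventional kinesin, was peaked in 0 of 5 sevoflurane animals and in C1 and C3 at 3.23 and 2.49 (Fisher's exact p = 0.455), again in separate regions. The kinesins as a family were split evenly: 6 of 17 had peaks only after sevoflurane, 6 only in controls and 5 in both groups. Each 6 is 35.3% of the family, beside 44.9% of all genes only after sevoflurane and 22.8% only in controls. Of the 9 kinesins peaked in 1 animal, KIF18B in S1 had the highest enrichment, 35.9, and KIF21B in S2 the lowest, 2.42.

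Dynein and dynactin were peaked in 2 to 3 genes per sevoflurane animal and 0 to 1 per control. Over all genes the ranges were 734 to 1349 after sevoflurane and 407 to 1050 in controls. The sevoflurane animals D, F and S3 had 3 each and S1 and S2 had 2 each, against 0 in A and B and 1 in each of C, C1, C2 and C3. DCTN3, the p24 subunit of the dynactin shoulder, accounts for 1 of these in every sevoflurane animal, and without it the sevoflurane animals had 1 to 2 and the controls 0 to 1. Of the 8 genes, 6 (75%) were seen only after sevoflurane, beside 44.9% of all genes, and 0 only in controls, beside 22.8%. The other 2 were seen in both groups. Of the 6, 5 were seen in 1 animal. Over all genes, 1298 of the 2053 seen in 1 animal were seen in a sevoflurane animal. With lists of equal length the counts were 2 in D and F, 0 in S1, 1 in S2 and 3 in S3, against 0 to 1 in controls, so the groups then overlapped, and the stricter p-value gave the same counts after sevoflurane and the same range in controls. As the genes were chosen with results known, the counts are given without a test.

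DCTN3 was peaked in 5 of 5 animals after sevoflurane, against 0 of 6 in the control group. This gave Fisher's exact p = 0.00216, the smallest that 5 against 6 animals can give, and an adjusted p of 0.606. Genes in every sevoflurane animal and no control numbered 4 of 1486, or 0.269%. Its enrichment was 4.32 in D, 5.93 in F, 3.22 in S1, 3.76 in S2 and 6.12 in S3. All 5 values are modest, and within their lists these peaks stood between the 13.7th and 57.6th percentile of enrichment. The authors' p-value was 1.3e-14 in D, 3.2e-14 in F, 2.5e-15 in S2 and 6.3e-15 in S3, but 6.9e-05 in S1. The 5 peaks formed 1 region, chr15:49647141-49649695 (plus strand), which spliced over 2 or 3 exonic blocks of 120 to 238 bp in all. Their midpoints lay 104.5 to 119 bp from the start of a transcript spanning 6988 bp. DCTN3 was thus peaked at its 5' end, at 1.5% to 1.70% of the span, the opposite end from most genes shared by all animals.

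The remaining motor genes of this family were seen in fewer animals. DYNC1LI2, a light intermediate chain that links dynein to cargo adaptors, was peaked in 2 sevoflurane animals (F and S3) and 3 controls (C, C2 and C3), with Fisher's exact p = 1. All 5 of these animals were female. Their peaks chained into the region chr20:50983676-50984066 (minus strand), in which 0 bp were common to all of them. By gene, 5 of 7 females and 0 of 4 males had a peak (Fisher's exact p = 0.0606, adjusted p = 1 over all tested genes). The unadjusted threshold was passed without S2 or without C1, both females with no DYNC1LI2 peak. DCTN1, the large p150Glued subunit that binds microtubules, was peaked only in D at 2.46. DYNC1H1, the motor heavy chain of cytoplasmic dynein, was peaked only in F at 2.80, and DYNC1LI1, the paralogue of DYNC1LI2, only in S3 at 3.14. DCTN2, the dynamitin subunit, was peaked in S1 and C1 at 3.32 and 2.56, in different regions, and under the stricter p-value in C1 alone.

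Myosins were peaked in 3 ± 1 genes per sevoflurane animal and 1.17 ± 0.753 per control (SD, n = 5 and 6). The ranges of 2 to 4 and 0 to 2 met at 2. Over all genes the means were 1043 ± 222 after sevoflurane and 601 ± 235 in controls. With lists of equal length, myosin peaks were no more frequent after sevoflurane than in controls. MYO18A was then in 2 sevoflurane animals and 1 control, MYO9A in 0 and 3, and no other myosin in more than 1 animal of a group. MYO9B, an unconventional single-headed myosin of class IX, was peaked in 4 of 5 sevoflurane animals, against 0 of 6 controls (Fisher's exact p = 0.0152, adjusted p = 0.606). Its strongest peak was enriched 13.2-fold in D, 9.08-fold in F, 5.98-fold in S1 and 5.86-fold in S2. S3 had none, and neither had any control. The 4 animals shared the region chr19:17130619-17132287 (plus strand; Fisher's exact p = 0.0152), with enrichments of 5.50 in D, 4.92 in F, 5.98 in S1 and 3.28 in S2. A second region near the 3' end, chr19:17148348-17149041, was found in D and F. All peaks of MYO9B were weak by the authors' p-value, from 1.4e-05 to 2.6e-04, and with lists restricted to p-values of at most 1e-05 it had 0 peaks in either group.

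By region, 102 stretches of RNA carried the peaks of the 55 genes, and 76 of them were seen in 1 animal. Of 20 tested, 2 passed an unadjusted Fisher's exact p of 0.05 after sevoflurane, those of DCTN3 and MYO9B, beside 1.5% of all 1265 tested regions (19), and 0 passed in controls. The smallest adjusted p over all regions was 0.610.

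Among the other myosins, MYO18A, a Golgi-associated myosin, shared the region chr16:23135818-23136923 (minus strand) between S1 and S2 at 3.45 and 3.08, and the control C at 3.47. MYO9A, the paralogue of MYO9B, was peaked in 3 sevoflurane animals, against 3 controls (Fisher's exact p = 1). Its strongest peaks were in D at 11, A at 31.1 and C1 at 25.4, in a region where SENP8 lies on the opposite strand and is the gene that the annotation column names. Which of the pair carries that peak cannot be told apart. With lists of equal length MYO9A was peaked in 0 sevoflurane animals and 3 controls (Fisher's exact p = 0.182). MYO10, a filopodial motor, was peaked only in S2 at 3.55.

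Tubulins were led by TUBB2B, a beta-tubulin of developing neurons, peaked in all 11 animals. Its enrichment was 16.8 in D, 18.2 in F, 23.9 in S1, 49.3 in S2 and 76.9 in S3, against 8.61 to 22.7 with a median of 12.6 in controls. S1, S2 and S3 lay above every control, while D and F lay inside the range of the controls. In rank within its own list it stood at the 75.0th to 98.1st percentile after sevoflurane and at the 61.8th to 81.7th in controls. The lists differ in length, so these ranks cannot show whether methylation changed. The shared region was chr4:3128413-3128799 (minus strand), with 179 bp common to all animals. Beta-tubulin genes are near-identical over much of their coding sequence, so how the reads were split between copies is uncertain, as it is for the alpha-tubulins.

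TUBA4A, an alpha-tubulin encoded without the C-terminal tyrosine, was peaked in 3 sevoflurane animals, against 2 controls (Fisher's exact p = 0.567). Its values were alike and low, 2.76 in D, 2.46 in F and 2.75 in S2, against 2.25 in A and 2.51 in C3, and all lay in 1 region, chr12:101379878-101380027 (minus strand). TUBA1B, a widely expressed alpha-tubulin, was peaked in S2 and S3 at 2.20 each, against 0 of 6 controls (Fisher's exact p = 0.182), in a shared region. TUBA8 in S2 at 8.52 and the gene with the symbol TUBB1, on chromosome 15, in F at 2.44 were seen once each.

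MAPT encodes tau, which binds axonal microtubules, and its median enrichment of 35.9 was the highest of the 5 genes peaked in all animals. Its enrichment was 68.2 in D, 59.0 in F, 11.3 in S1, 74.5 in S2 and 34.9 in S3, against 2.92 to 38.9 with a median of 33.5 in controls. D, F and S2 exceeded every control, S1 and S3 did not, and C1 and C2 were the low controls at 2.92 and 5.13. All 11 animals had the region chr16:52468381-52468681 (plus strand), which the authors' annotation places in the 3' UTR, at a median of 3479.5 bp from the end of the annotated transcript. The 151 bp from 52468471 to 52468621 lay in every animal's peak. A gene model of KANSL1 overlaps MAPT here, and S1 and S2 had a further MAPT region in the middle of the span that no control had (Fisher's exact p = 0.182).

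MAP1A, a microtubule-bundling protein of mature dendrites and axons, was enriched 7.11-fold in D, 3.83-fold in F, 8.16-fold in S1, 5.04-fold in S2 and 8.02-fold in S3. Controls ranged from 3.95 to 8.41 with a median of 5.34, and the groups overlapped throughout. Its shared region, chr7:19945683-19946012 (plus strand), also carried the authors' 3' UTR class, with 31 bp common to all 11 peaks. MAP4, the broadly expressed member, was peaked only in the control C at 3.14.

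Of the neurofilament subunits, only the medium chain was widely peaked. NEFM was enriched 5.22-fold in D, 7.49-fold in F, 4.49-fold in S1, 7.14-fold in S2 and 8.95-fold in S3, against 2.48 to 14.6 with a median of 9.41 in controls. The groups overlapped, the highest values being those of the controls A and B and the lowest that of C. The region chr8:24935943-24936692 (plus strand) held the peak in 10 animals, and C had its peak elsewhere, at 55.9% of the span. NEFH and NEFL, the heavy and light chains, were peaked only in S2 at 3.38 and 2.57. The authors' p-value was 1.6e-05 for the NEFH peak and 1e-102 for that of NEFL. S2 had the longest list of all. With lists of equal length, and with the stricter p-value, NEFL kept its peak in S2 and NEFH had none.

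Ankyrins and spectrins were peaked in 2.40 ± 1.14 genes per sevoflurane animal and 1 ± 1.10 per control (SD, n = 5 and 6). Over all genes the means were 1043 ± 222 and 601 ± 235. With lists of equal length, peaks of this family were about as frequent in both groups. SPTBN4, the beta-IV spectrin of axon initial segments and nodes of Ranvier, was peaked in 3 sevoflurane animals, against 1 control (Fisher's exact p = 0.242). Its enrichment was 13.2 in D, 13.6 in F and 6.81 in S2, against 6.68 in B. With lists of equal length SPTBN4 was peaked in 1 sevoflurane animal and 1 control, and with the stricter p-value in 3 and 1. Its peaks were scattered over 9 regions, and only chr19:36264175-36265819 (plus strand) joined peaks of several animals, D, F, S2 and B, with 1 exonic bp common to them. SPTB, a beta-spectrin best known from red cells, was peaked in 3 sevoflurane animals, against 0 controls (Fisher's exact p = 0.0606), at 3.89 in S1, 2.91 in S2 and 24.5 in S3. Without D or without F, which had no SPTB peak, that exact p was 0.0333. It was 0.133 without S1, S2 or S3, and 0.167 without any single control. With lists of equal length SPTB had 0 peaks in either group. Its 5 regions were each found in 1 animal. ANK3, the ankyrin-G that clusters sodium channels, was peaked in 2 sevoflurane animals at 2.71 and 2.96 and in 3 controls at 2.83 to 4.05. Its peaks in C and C2 share an unnamed gene model. ANK1, the erythroid ankyrin, was peaked only in S2 at 3.44.

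Per animal, 17 of these genes had a peak in D, 18 in F, 14 in S1, 26 in S2 and 19 in S3, against 9 to 16 with a median of 11 in controls. The groups overlapped in C3, the longest control list, which held 16. Means were 18.8 ± 4.44 after sevoflurane (SD, n = 5) and 11.5 ± 2.43 in controls (SD, n = 6). Relative to the peaked genes of each animal, the shares were 1.80% ± 0.108 after sevoflurane and 2.02% ± 0.410 in controls, and the ranges overlapped. With every list shortened to its 452 peaks of lowest p-value, the means were 11.6 ± 2.41 genes after sevoflurane and 10.2 ± 0.983 in controls (SD, n = 5 and 6). The shares were then 2.85% ± 0.539 after sevoflurane and 2.46% ± 0.282 in controls, the opposite order to that of the full lists. The plot of these genes against all genes with a peak gives every animal's value.

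**Figure D3:**
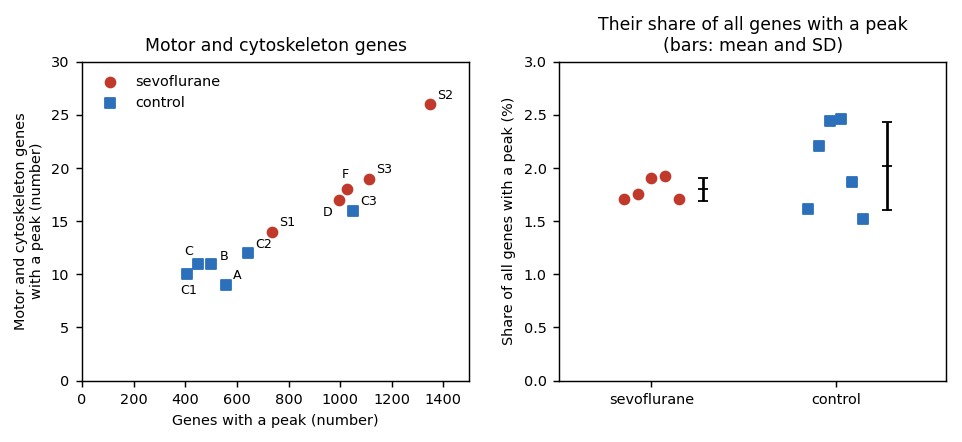
Left, the number of motor and cytoskeleton genes with a peak against the number of all genes with a peak, 1 point per animal; right, their ratio in percent with mean and SD, sevoflurane left of control. The sevoflurane animals hold 14 to 26 of these genes and the controls 9 to 16, while the shares lie at 1.71% to 1.93% and 1.52% to 2.46%.

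The peaks of these families lay closer to the 3' end than peaks in general. The median position of a peak's midpoint was 76.3% along the annotated transcript's span for 194 peaks of the families and 64.8% for all 9549 peaks with a position. The first 20% of the span held 10.3% of the families' peaks, beside 26.0% of all peaks, and the last 20% held 46.4%, beside 37.5%. The 6 genes of 10 or more animals weigh heavily in this: 62.2% of their 82 peaks lay in the last 20%, beside 34.8% of the peaks of the other 49 genes. Counted once per gene, by the gene's median peak, 34.0% of 53 genes of the families and 33.9% of 3510 genes lay in the last 20%, and the families then showed no surplus there. For the first 20% the values per gene were 13.2% and 24.2%. By strand, the median was 91.4% for plus-strand and 58.8% for minus-strand peaks of the families, beside 68.5% and 61.1% for all peaks. KIF1A, MAP1A, MAPT and NEFM lie on the plus strand, KIF3B and TUBB2B on the minus strand, and without these 6 genes the medians were 73.4% and 68.0%. Genes of the families were also longer, with a median span per peak of 68069 bp, beside 34789.5 bp, and introns count in this position. The plot of peak positions shows the shared regions as tight columns.

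**Figure D4:**
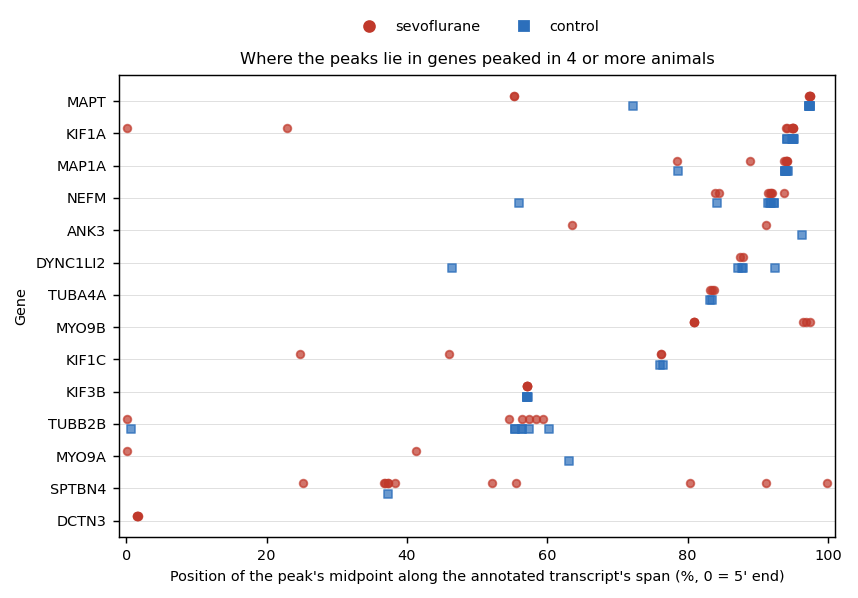
Position of each peak's midpoint along the span of the annotated transcript (%, 0 at the 5' end), for motor and cytoskeleton genes peaked in 4 or more animals, sevoflurane peaks above the line and control peaks below. The peaks of MAPT, KIF1A, MAP1A and NEFM stack beyond 90%, those of KIF3B and TUBB2B stand near 57%, SPTBN4 is scattered, and DCTN3 stands at the 5' end.

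In strength, the families were divided in the same way. Peaks of the 6 widely peaked genes had a median enrichment of 9.64, and 95.1% of them had an authors' p-value of at most 1e-05. Peaks of the other 49 genes had a median of 3.61, and 58.8% met that p-value. Only 7.32% of the peaks in the 6 genes spanned more than 1 exonic block, beside 50.4% in the others and 35.9% in all peaks. Across all peaks the median enrichment was 6.03. With the stricter p-value, 42 of the 55 genes still had a peak, and KIF1A, MAPT and TUBB2B had it in all 11 animals.

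**Figure D5:**
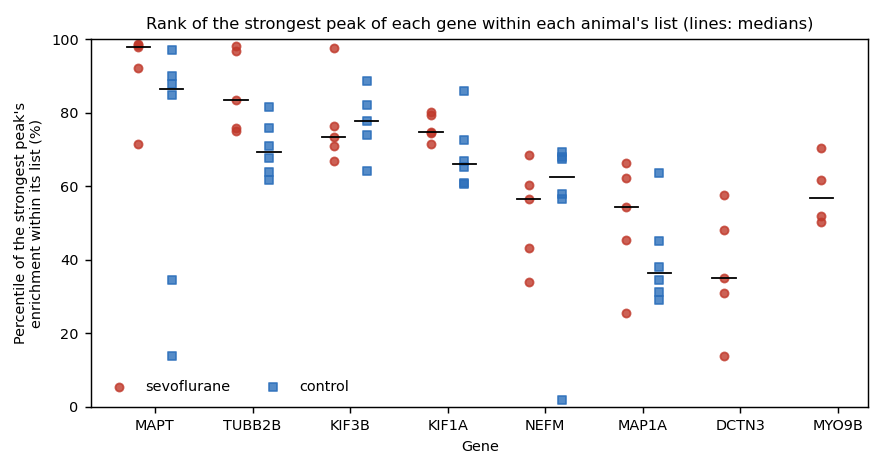
Percentile of each gene's strongest peak by the authors' enrichment within its own animal's list, 1 point per animal with the median as a line, sevoflurane left and control right of each gene. MAPT has medians of 97.9% and 86.4% and the low controls C1 and C2, TUBB2B, KIF3B and KIF1A stand above 60% in every animal that had the peak, and DCTN3 and MYO9B have sevoflurane points only.

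Sex was examined because both groups hold males and females. Of the 22 tested genes 0 passed an unadjusted Fisher's exact p of 0.05 in females or in males, beside 0.135% of all tested genes for each. For 0 of them did the treatment difference differ between females and males (exact permutation over 150 arrangements of sex within treatment, unadjusted p under 0.05), beside 0.269% of all tested genes. The DCTN3 peak was present in 3 of 3 sevoflurane females and 2 of 2 sevoflurane males.

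Partner genes outside the families (kinesin light chains, dynein light chains, cargo adaptors, microtubule kinases and end-binding proteins) were examined as a list of 81 symbols, of which 40 gene entries had a peak. Of 25 tested, 0 passed an unadjusted Fisher's exact p of 0.05 in either direction. In a larger share of sevoflurane animals were 21 and in a larger share of controls 4, with a median difference of 23.3 percentage points, the same as over all genes. ACTR1B, the beta-centractin of the dynactin filament, and MAPK8IP3, the kinesin and dynein adaptor JIP3, were each peaked in 3 sevoflurane animals, against 0 controls (Fisher's exact p = 0.0606). DYNLL2, a dynein light chain, STMN4, a stathmin-family tubulin-binding protein, and TTBK1, a tau kinase, were peaked in 11 of 11 animals. GAP43, a growth-cone protein, was peaked in 4 sevoflurane animals and 5 controls.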

How the data were processed

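The deposited tables list m6A peaks of 11 immunoprecipitated samples. Per the file headers, each peak has the authors' p-value, their log10 scores of the p-value and of the false discovery rate, and their fold enrichment (a ratio). HISAT2 2.1.0, StringTie, Trim Galore 0.5.0, cutadapt and rheMac8 appear in the submitters' processing notes; the peak caller is not given in the sources used here. The largest deposited p-value was 0.001 and the smallest enrichment 2.06.

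A gene had a peak where a list called at least 1 in it. Symbols came from a gene name table (53 genes of the families) or the peak tables (2). Peaks on 1 strand were joined into regions across animals where their exonic blocks shared at least 1 bp; coordinates are 1-based. For 7 peaks of the families the annotation column has another gene, and these got no position; 1 SPTAN1 peak lay before its transcript's start. Genes and regions in 2 to 9 animals were compared by two-sided Fisher's exact tests with Benjamini-Hochberg adjustment over all of them (Python 3.11.15, SciPy 1.17.1, pandas 2.3.3), tested on simulated data. Alternatives were a stricter p-value (1e-05), lists of equal length (452 peaks), the annotation column's gene, 50% reciprocal overlap, any number of animals, females only, the 6 animals with numbered names, a replicate block and leaving out each animal.

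The families, gene lists and tests were chosen with earlier results of these data known. Named were genes past the unadjusted threshold, those in at least 9 animals, DCTN3, NEFH and NEFL, and up to 4 per family by difference in share of animals. KIF18B, KIF21B, DYNC1LI2, DCTN2, MYO9A, ANK3 and the partner genes were named after their values were seen. Counts cover all 55 genes; 2 genes are not reported here by name. Deviations of same-numbered animals from their group correlated weakly (r = 0.0628, 0.000159 and 0.0234). Between animals with different numbers r was -0.0826 to 0.0594. No test was run on these r values, and numbers were not taken as pairs in the main tests. Only the replicate block alternative used them. It permuted treatment within C1 and S1, C2 and S2, C3 and S3, and within the animals with letter names.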

Additional observations from a re-analysis of the deposited data

Results flagged for a closer look

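Among 20 groups of values examined for a sample far from the rest, 2 had one, where chance gives about 1 in 20. In the sevoflurane animals, S2 had 37 peaks in the motor and cytoskeleton genes, and the other 4 animals had 20 to 22. S2 also had the longest list, with 1673 peaks. The strongest KIF3B peak was enriched 66.4-fold in S3, and 9.05- to 14.7-fold in the other 4 sevoflurane animals. Whether depth had a part in either value was not tested, since the depth is unknown.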

How the results depend on the processing

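The 2 genes past an unadjusted Fisher's exact p of 0.05 after sevoflurane, DCTN3 and MYO9B, became 1 with the stricter p-value, 1 with lists of equal length and 1 in females only; over all genes 27 became 10, 4 and 24. With the 6 numbered animals the count was 0, because 3 against 3 animals cannot pass. Leaving out each animal gave 2 to 4 (31 to 85 over all genes), with KIF16B added without D or S2 and SPTB without D or F. In both cases the animals left out had no peak in the gene added. DCTN3 was left in 4 of 5 sevoflurane animals, against 0 of 6 controls (Fisher's exact p = 0.0152) under the stricter p-value and under equal length, where S1 lost its peak; MYO9B had 0 peaks in both. The 2 regions became 1 under both settings. The replicate block left 2 genes, and changed no call. The 0 genes more often peaked in females became 0 to 1 on leaving out each animal (DYNC1LI2 without S2 or without C1), and the 2 over all genes became 1 to 12, 3 without S2 and 10 without C1. The difference in genes per animal, 7.30, was 1.43 with lists of equal length and 5.50 to 8.50 on leaving out each animal. The difference in share, -0.218 percentage points, turned to 0.391 with lists of equal length. Of the named genes of the families under an alternative, 541 values stayed on their side, 4 passed the threshold newly, 3 lost it (MYO9B), 4 moved and 8 turned direction. MYO9A turned to -13.3 percentage points with the stricter p-value and -50 with lists of equal length. DCTN2 turned to -16.7 under both of these and -25 in females only, and ranged from -16.7 to 20 on leaving out each animal. ANK3 turned to 3.33 with the stricter p-value and 23.3 with the annotation column's gene. None of these 3 genes passed the threshold, and the causes were not tested. Limits are the unknown depth, the missing RNA levels, 5 against 6 animals, and gene models that overlap.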
